A study of Homo sapiens with 6 samples.

Results

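The guanylate-binding proteins GBP1, GBP2, GBP3, GBP4 and GBP5 were followed in HT29, a long-established line of human colorectal adenocarcinoma cells, over 6 arrays. The members were set by symbol, and each gene was read from the probe set that the platform annotation assigned to that symbol alone, with the highest mean over the 6 arrays where there was more than 1. By this rule 4 of the 5 members had a probe set, out of 18417 genes in the table, and GBP1 had none of its own. The only probe set that names GBP1 is also assigned to GBP3 and to the pseudogene GBP1P1, and is described below as a shared probe set. Per the labels, 3 arrays came from HT29 cells with a control construct and 3 from HT29 cells with a laminin α1 expression construct, all grown for 7 days. The series' design text gives 3 culture passages per group. The sources used here give neither the promoter and sequence of the constructs nor the number of cell clones behind a group, so the arrays measure the spread between passages only. The family was chosen by the log2 differences between these groups, which were already known, so the group values of the members are given as a description, with no test.

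Guanylate-binding proteins are large GTPases of the dynamin superfamily, and interferon-γ is their classical inducer, with the transcription factor IRF1 among those that act on their promoters. In infected cells they assemble on pathogen vacuoles and on bacteria that reach the cytosol, where GBP1 coats the bacterial surface with GBP2, GBP3 and GBP4 and a caspase-4 platform forms on the coat. In the intestine the epithelium makes them during inflammation, and there the caspase-4 branch leads to gasdermin D pores and the release of interleukin-18.

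The promoter windows of the family are shown first, since the interferon response elements in them are the feature of these genes that can be set beside the array values. RefSeq windows of 300 bases (250 before and 50 from the gene start onward, GRCh38.p14) were at hand for 3 of the 5 members, GBP1, GBP3 and GBP4. They are written 5′ to 3′ on the gene's strand, and capitals mark matches to the interferon-stimulated response element, searched as TTTC, any 2 bases and TTTC again or, on the other strand, GAAA, any 2 bases and GAAA, and to the gamma-activated site, searched as TTCNNNGAA, which reads the same on both strands.
GBP1: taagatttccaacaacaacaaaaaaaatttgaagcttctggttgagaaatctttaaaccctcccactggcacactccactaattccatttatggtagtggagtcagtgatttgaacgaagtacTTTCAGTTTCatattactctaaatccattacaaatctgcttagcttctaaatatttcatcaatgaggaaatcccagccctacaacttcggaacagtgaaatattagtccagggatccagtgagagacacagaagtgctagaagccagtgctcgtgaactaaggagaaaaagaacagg
GBP3: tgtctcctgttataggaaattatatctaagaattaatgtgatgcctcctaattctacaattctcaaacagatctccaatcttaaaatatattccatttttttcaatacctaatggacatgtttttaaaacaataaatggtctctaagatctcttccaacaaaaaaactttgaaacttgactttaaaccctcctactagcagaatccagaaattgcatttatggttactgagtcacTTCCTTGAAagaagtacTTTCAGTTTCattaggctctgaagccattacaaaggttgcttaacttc
GBP4: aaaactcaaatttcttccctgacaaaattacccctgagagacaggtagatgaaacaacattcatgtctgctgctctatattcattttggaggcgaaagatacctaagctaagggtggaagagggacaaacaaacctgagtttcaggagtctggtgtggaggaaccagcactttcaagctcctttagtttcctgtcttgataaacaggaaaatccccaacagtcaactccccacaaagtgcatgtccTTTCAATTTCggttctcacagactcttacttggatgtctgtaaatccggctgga

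These windows lie at chr1:89065159-89065458 for GBP1, at chr1:89022817-89023116 for GBP3 and at chr1:89198893-89199192 for GBP4, all on the minus strand. With the first base of the gene counted as 0, the response element match spans -127 to -118 in GBP1, 2 to 11 in GBP3 and -4 to 5 in GBP4. GBP3 also holds a gamma-activated site match, at -15 to -7, which does not overlap the other. The gamma-activated site was searched only in the strict form TTCNNNGAA, and looser forms were not searched. The GBP1 window reads ttactctaa shortly after its response element match, a run that the strict form cannot match. The lack of a match in a window therefore does not show that the gene lacks a gamma-activated site. A response element match was found in 3.57% of the 35116 windows of all genes, a gamma-activated site match in 7.66%, and both in 0.439%. GBP1 and GBP3, which are 48.0% identical over a global alignment of 342 columns, share an unbroken run of 19 bases around the match, gaagtacTTTCAGTTTCat. No match to either pattern lay in the windows of GBP6 and GBP7, the other family genes on the array. Identity over the pairs of all these windows ran from 42.9% (GBP4 and GBP6) to 50.3% (GBP1 and GBP7), so that of GBP1 and GBP3 lay within the range of the family. The next longest shared run had 13 bases, in GBP1 and GBP7. A match is only a run of letters, and binding was not measured.

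**Figure D1:**
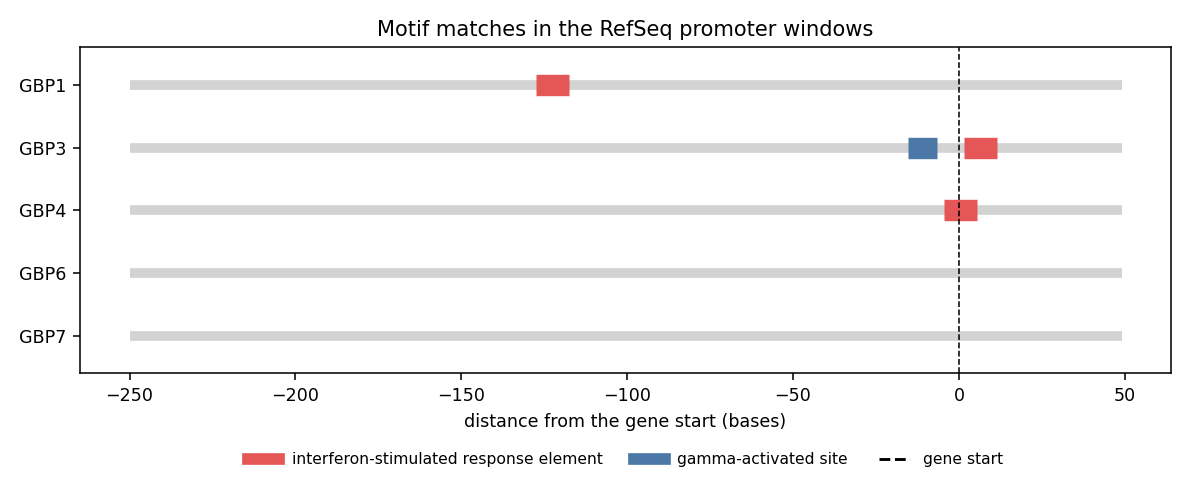
Matches to the interferon-stimulated response element (red) and the gamma-activated site (blue) in the RefSeq promoter windows of 5 family genes, by distance in bases from the gene start (dashed line). The gamma-activated site was searched only as TTCNNNGAA, so looser forms are not shown. GBP1, GBP3 and GBP4 each hold 1 response element match, with that of GBP4 across the gene start, and GBP6 and GBP7 hold none.

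The values are log2 expression values made with RMA, and a level filter at log2 5.50, the 25th percentile of all genes, separated genes that were tested from those that were not. GBP2, GBP3 and GBP4 lay above it on average and GBP5 below. GBP2 and GBP4 were higher on all 3 arrays labelled laminin α1 than on any control array, GBP3 overlapped between the groups, and GBP5 stayed below the filter on all 6 arrays. LAMA1, the gene of the laminin α1 chain, averaged 5.65 ± 0.05 under the control construct and 5.74 ± 0.05 under the laminin construct (SD, n = 3 per group). Its groups did not overlap, with 5.710 as the lowest laminin value and 5.705 as the highest control value. Such a higher group was seen for 10.1% of all tested genes. The LAMA1 difference of 0.09 did not pass limma's test (adjusted p = 0.535), so it does not check the labels, and laminin α1 arrays means arrays so labelled. Since the arrays read bulk RNA, more RNA per cell and more cells that make it cannot be told apart.

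GBP2, a prenylated member that sits on Golgi and vacuole membranes and lowers the activity of the protease furin, read 6.22, 6.32 and 6.36 on control replicates 1 to 3, and 6.93, 6.64 and 6.79 on laminin α1 replicates 1 to 3, the order kept below. Every laminin α1 value was above every control value, with a gap of 0.27 between the groups. The means were 6.30 ± 0.07 and 6.79 ± 0.15 (SD, n = 3), so the groups differed by log2 0.48 (SE 0.08), a 1.40-fold change. A second probe set assigned to GBP2 alone, which the rule does not use, gave 5.81, 5.89 and 5.84 in control and 6.60, 6.24 and 6.16 in laminin α1 arrays. The groups were apart here too, by 0.27, and the difference of 0.49 was close to that of the first. The probe sets differed in the order of the laminin α1 arrays: replicate 1 was highest in both, while the lowest was replicate 2 in the first and replicate 3 in the second.

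GBP4, which joins the coat that GBP1 starts on bacteria, had values of 5.39, 5.51 and 5.43 in control and 6.43, 5.96 and 5.92 in laminin α1 arrays. The groups were 0.40 apart, and laminin α1 replicate 1 stood above the other laminin α1 arrays by more than those differed from each other. The means were 5.44 ± 0.06 and 6.10 ± 0.28 (SD, n = 3), so the groups differed by log2 0.66 (SE 0.12), a 1.58-fold change. Only 1 of the 3 control values lay above the level filter, against 3 of 3 in laminin α1 arrays, so GBP4 passed the filter through the group in which it was higher. Without laminin α1 replicate 1 the difference was 0.49.

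GBP3, another member of the coat, had values of 6.57, 6.51 and 6.75 in control and 6.22, 6.36 and 6.76 in laminin α1 arrays. The groups overlapped, with the lowest and the highest of the 6 values both in laminin α1 arrays. The means were 6.61 ± 0.13 and 6.45 ± 0.28 (SD, n = 3), and the difference of -0.16 (SE 0.13) was smaller than the spread among the laminin α1 arrays. It ranged from -0.32 without laminin α1 replicate 3 to -0.05 without laminin α1 replicate 1. The probe set shared by GBP1, GBP3 and GBP1P1 gave 7.29, 7.27 and 7.31 in control and 7.38, 7.48 and 7.67 in laminin α1 arrays. Its groups were 0.07 apart, with a difference of 0.22 (SE 0.08), and it ordered the laminin α1 arrays as GBP3 did, from replicate 1 as the lowest to replicate 3 as the highest. Which of the 3 genes gave its signal was not tested, and GBP1, the best known member of the family, has no value of its own here.

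GBP5, a prenylated member that promotes assembly of the NLRP3 inflammasome, had values of 4.44, 4.40 and 4.44 in control and 4.44, 4.24 and 4.39 in laminin α1 arrays, all below the level filter. The groups overlapped and the difference was -0.07 (SE 0.07). GBP6 and GBP7, which were read beside the members, were below the filter on all arrays as well. GBP6 had means of 3.88 ± 0.11 and 3.95 ± 0.02 (SD, n = 3), and GBP7 of 4.72 ± 0.03 and 4.92 ± 0.14. The 3 laminin α1 values of GBP7 lay above its control values by 0.04, at levels where signal is low. Of the 3 members above the filter, then, 2 had laminin α1 arrays wholly above control arrays and 1 overlapped. Over the 13812 genes tested, the groups lay apart in this direction for 10.1% and in either direction for 21.6%, and nothing is read from the comparison of these shares, since the contrast was known when the family was picked.

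**Figure D2:**
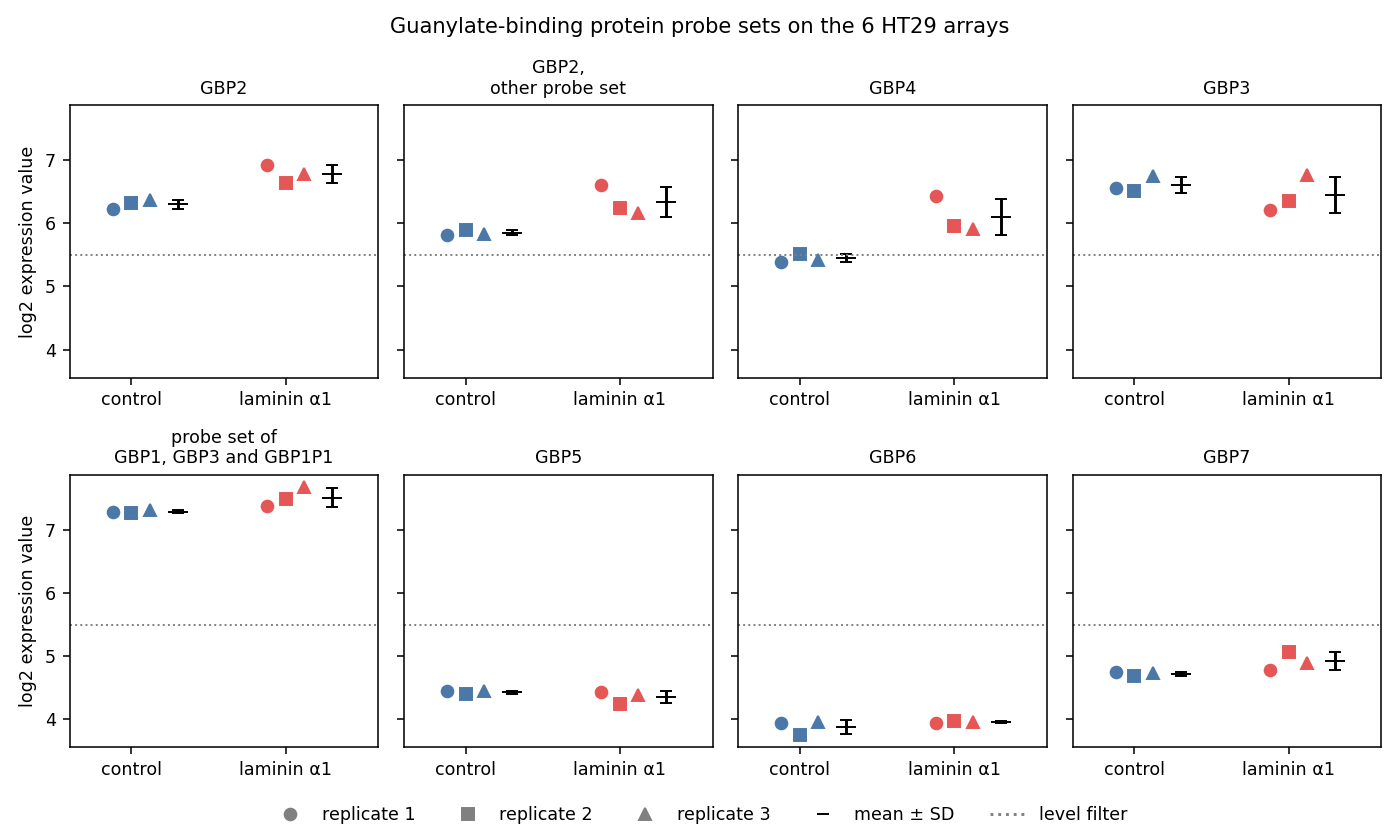
Log2 expression values of the 8 probe sets that name a guanylate-binding protein, on 3 control arrays (blue) and 3 laminin α1 arrays (red), with replicates by symbol, the mean ± SD (n = 3) in black and the level filter of 5.50 dotted. GBP2 and GBP4 are higher on all laminin α1 arrays, GBP3 overlaps, and GBP5, GBP6 and GBP7 lie below the filter throughout.

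Likeness between the members above the filter is given as a description only. It was measured as the root mean square distance between the values of 2 genes, in log2 units, after each gene's own mean over the 6 arrays was subtracted. GBP2 and GBP4 were 0.14 apart, and 1.93% of tested genes lay nearer to GBP2 and 0.253% nearer to GBP4 than they did to each other. GBP3 was 0.39 from GBP2 and 0.52 from GBP4, and 99.2% of tested genes lay nearer to GBP3 than GBP4 did. These distances include the differences between the groups by which the family was chosen, so they largely restate them, and no grouping of the members is read from them.

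Within the laminin α1 group the members differed in which array was highest. Against the laminin α1 mean, GBP4 lay at 0.33, -0.14 and -0.19 on replicates 1, 2 and 3. GBP3 lay at -0.23, -0.09 and 0.32 on the same arrays, so the array on which GBP4 was highest had the lowest GBP3. GBP2 lay at 0.14, -0.15 and 0.00. On replicate 2 all 3 members lay below their means. In the control group GBP4 lay at -0.05, 0.07 and -0.02, and GBP3 at -0.04, -0.10 and 0.14, so both were below their means on control replicate 1. With 3 arrays per group these are single values, and the labels give no reason for an order among passages.

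The genes nearest in pattern were found by the same distance. It includes the group differences by which the family was chosen, so genes with a like difference between the groups come out as near. No link between such genes and the members is read from it. For GBP4 they were IFI27, a mitochondrial and nuclear envelope protein induced by interferon, at 0.06, and TAP2, a subunit of the transporter that loads peptides onto MHC class I, at 0.09. For GBP2 they were SLC17A5, a lysosomal sialic acid transporter, at 0.05, and DUSP4, a phosphatase of MAP kinases, at 0.06. For GBP3 they were PGAP1, an enzyme of GPI anchor remodelling, and SMC5, a subunit of a chromosome maintenance complex, both at 0.01. Neither PGAP1 nor SMC5 passed limma's test between the groups (adjusted p = 0.622 and 0.654), although PGAP1 did without laminin α1 replicate 3 (adjusted p = 0.0494). To the mean pattern of GBP2, GBP3 and GBP4, which averages group differences of unlike sign, the nearest were ANXA2R-AS1, ALDH1L1, ERCC8, GCLM and IL1RL2, at 0.04 to 0.05.

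**Figure D3:**
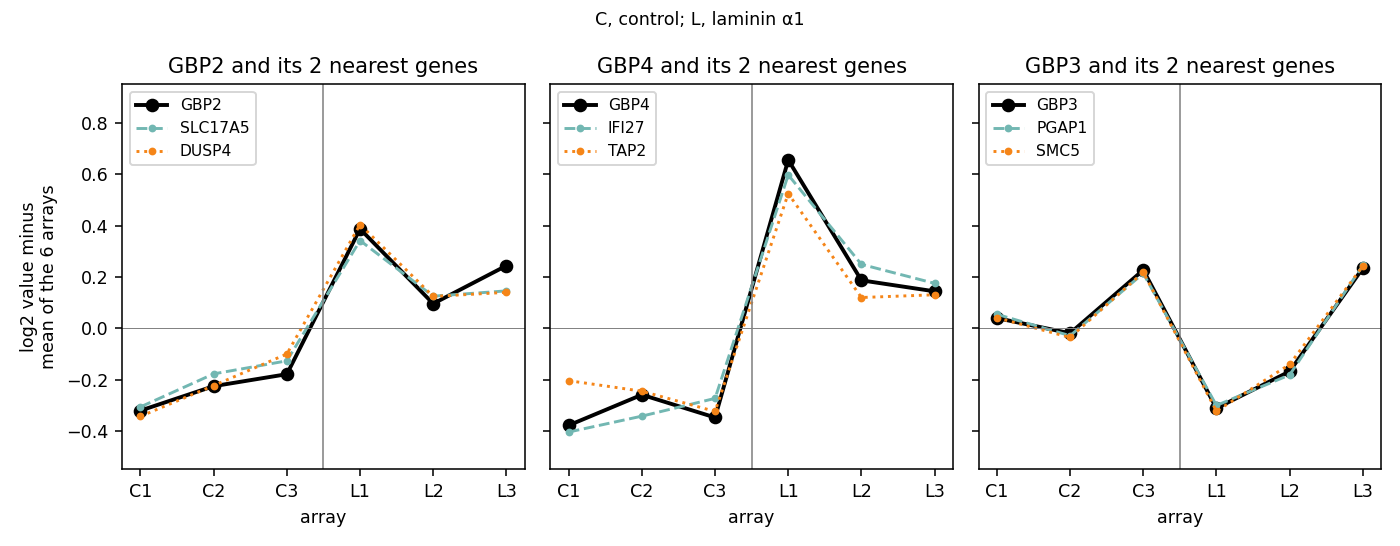
Log2 values of GBP2, GBP4 and GBP3 (black) and of the 2 genes nearest to each, after subtraction of each gene's mean, on control arrays (C1 to C3) and laminin α1 arrays (L1 to L3). GBP4, IFI27 and TAP2 are highest on laminin α1 replicate 1, where GBP3, PGAP1 and SMC5 are lowest.

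The genes around the family were tested in a limma fit over all 13812 genes, in which 730 or 5.29% passed the threshold of an adjusted p of 0.05, 2.69% higher and 2.59% lower. The median difference over all genes was -0.01. Leaving out 1 array moved the count of 730 by over 1.5 times in 3 cases, to 407 (control replicate 2 left out), 429 (laminin α1 replicate 2) and 1214 (laminin α1 replicate 3). The interferon-induced dynamin-like GTPases MX1 and MX2 rose. MX1, which traps viral nucleocapsids, had 8.07, 7.92 and 7.41 in control and 9.15, 8.58 and 8.47 in laminin α1 arrays, a rise of log2 0.93 (SE 0.19, adjusted p = 0.0207). MX2 had 7.28, 7.12 and 6.79 in control and 8.35, 7.70 and 7.73 in laminin α1 arrays, a rise of log2 0.86 (SE 0.17, adjusted p = 0.0172). The groups did not overlap for either gene, and laminin α1 replicate 1 was the highest array for both, as it was for GBP2 and GBP4. MX1 lost its call without control replicate 3 (adjusted p = 0.0516), and MX2 without control replicate 2 or control replicate 3 (adjusted p = 0.0508 and 0.0568). IRGQ, the other tested gene of that list, did not pass (adjusted p = 0.963).

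Relatives of the family that are not known for induction by interferon were tested next. Of 11 tested atlastins, dynamins, mitofusins and EHD proteins, which shape and fuse membranes, 1 rose and 0 fell, with a median difference of 0.03. The gene that rose was EHD4, an endosomal ATPase, by log2 0.33 (SE 0.07, adjusted p = 0.0219). Its call was lost without any 1 of the control arrays and without laminin α1 replicate 2, with adjusted p between 0.0518 and 0.114.

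Genes upstream of the family were tested as a second set. Interferon receptors, Janus kinases, STATs and IRF factors had 1 of 17 tested genes higher and 0 lower, with a median difference of 0.08. An unadjusted p under 0.05 was reached by 4 of the 17, all 4 higher, against 16.7% of all tested genes. The gene that passed the adjusted threshold was IRF9, the DNA-binding part of the complex that acts on interferon response elements. It had 8.48, 8.46 and 8.37 in control and 9.15, 8.80 and 8.75 in laminin α1 arrays, a rise of log2 0.46 (SE 0.10, adjusted p = 0.0269) with no overlap. The call of IRF9 was lost without any 1 of the control arrays and without laminin α1 replicate 2, with adjusted p between 0.0571 and 0.0937. IRF1, the factor that binds the promoters of guanylate-binding proteins after interferon-γ, had 7.83, 7.69 and 7.74 in control and 8.25, 7.96 and 7.90 in laminin α1 arrays. Its groups did not overlap, but the difference of 0.28 (SE 0.09) did not pass (adjusted p = 0.140). It passed without laminin α1 replicate 3 (adjusted p = 0.0480), with the replicate number as a block (0.0268) and with array weights (0.00144). The estimation of the array weights stopped before it converged, here and below. With them 4691 of all tested genes passed in either direction, and with the block 1596.

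The subunits of the interferon-γ receptor did not pass in either direction. IFNGR1, the ligand-binding chain, had a difference of -0.12 (SE 0.08, adjusted p = 0.499), and IFNGR2, the signalling chain, one of 0.03 (SE 0.08, adjusted p = 0.911) whose sign turned when single arrays were left out. Among interferons themselves 4 of 16 on the array lay above the level filter and 0 passed limma's test, with 3 at an unadjusted p under 0.05, all 3 higher (IFNE and the interferons-λ IFNL1 and IFNL3), against 16.7% of all tested genes at that unadjusted p in either direction. The block called 2 of the 4 higher and array weights 3, where they called 746 and 2305 of all 13812 tested genes higher. The smallest p was that of IFNE, an epithelial type I interferon, at 6.07 ± 0.05 against 6.51 ± 0.28 (control against laminin α1, SD, n = 3; limma adjusted p = 0.0757). It passed with the replicate number as a block (adjusted p = 0.0336), with array weights (0.00056) and without laminin α1 replicate 1 (0.0114), the array on which MX1, MX2, GBP2 and GBP4 were highest and IFNE was lowest of its group. The 11 tested negative regulators of the pathway had a median difference of 0.02. An unadjusted p under 0.05 was reached by 3, 2 higher and 1 lower, against 16.7% of all tested genes. By adjusted p 1 rose and 0 fell. It was PIAS3, an inhibitor of STAT3 (log2 0.37, SE 0.08, adjusted p = 0.0297), whose call was lost without any 1 of 4 arrays (control replicates 2 and 3, laminin α1 replicates 1 and 2), with adjusted p between 0.0847 and 0.139.

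In both lists of genes that share their inducers with the family, some of the tested genes rose past the threshold. Of 14 tested genes known for induction by interferon-γ, 4 rose and 0 fell, and all 14 differences were positive, with a median of 0.29. That list had 22 genes, of which 18 had a probe set of their own. CXCL9, IDO1, CD274 and UBD lay below the level filter and were not tested, with differences of 0.02, 0.06, 0.10 and -0.09. CXCL10, a chemokine for activated T cells, rose by log2 1.38 (SE 0.14). TAP1, the partner of TAP2, rose from 7.70 ± 0.12 to 8.45 ± 0.28 (SD, n = 3; limma adjusted p = 0.00682), and PSMB9, a catalytic subunit of the immunoproteasome, 6.88 ± 0.11 and 7.47 ± 0.17 (adjusted p = 0.00514). TAP2 rose by log2 0.52 (SE 0.11, adjusted p = 0.0190) and lost its call without any 1 of the control arrays (adjusted p 0.0552 to 0.0708). Of 24 genes known for induction by interferon-α and -β, 15 rose and 0 fell, and all 24 differences were positive, with a median of 0.46. The smallest p values of that list were those of IFI44L, XAF1, HERC6 and IFIT1, which rose by log2 0.74, 0.69, 0.57 and 0.66. Over all tested genes 2.69% rose, and 45.6% had a difference above 0.

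The arrays within the laminin α1 group again differed between these lists. Replicate 1 was the highest laminin α1 array for 11 of the 14 genes induced by interferon-γ and for 13 of the 24 induced by interferon-α and -β, against 43.2% of all tested genes. Replicate 3 was the highest for 11 of those 24 and for 2 of the 14, against 31.4% of all tested genes. GBP2 and GBP4 were highest on replicate 1, GBP3 and the shared probe set on replicate 3.

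**Figure D4:**
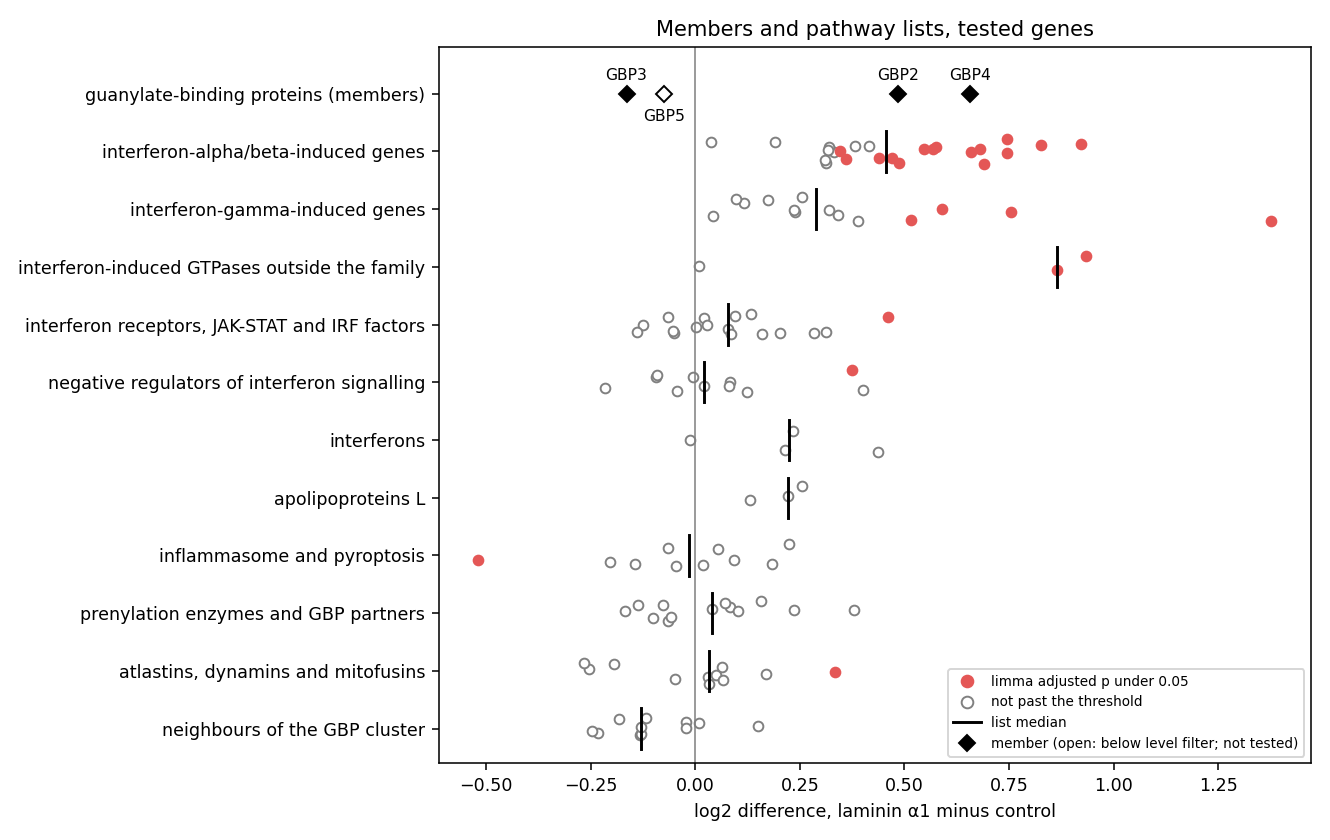
Log2 differences, laminin α1 minus control, of the members (diamonds) and of the tested genes of each pathway list (circles), with genes past a limma adjusted p of 0.05 in red and list medians as bars. All differences of tested genes in the 3 interferon-induced lists are above 0, as are those of 45.6% of all tested genes. The members, chosen by these differences, lie between -0.16 and 0.66.

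Genes that act with or after the guanylate-binding proteins made up the next lists. Of 18 inflammasome and pyroptosis genes on the array 10 lay above the level filter and were tested. Of these 0 rose and 1 fell, with a median difference of -0.01. An unadjusted p under 0.05 was reached by 4 of the 10, 2 higher and 2 lower, against 16.7% of all tested genes. CASP4, the caspase that the protein coat recruits, averaged 9.08 ± 0.12 against 9.17 ± 0.05 (SD, n = 3; limma adjusted p = 0.621). GSDMD, which encodes the pore protein cut by caspase-4, had 7.05 ± 0.11 and 7.07 ± 0.02 (adjusted p = 0.939). IL18, the cytokine that leaves through the pores, fell by 0.52 on the log2 scale (SE 0.13, adjusted p = 0.0427), from 7.30 ± 0.18 to 6.78 ± 0.24. That call was lost with arrays centred on their medians (adjusted p = 0.0559) and without any 1 of control replicates 1 and 2 and laminin α1 replicates 2 and 3 (adjusted p 0.0512 to 0.171). CASP1, the other inflammatory caspase of the pathway, was below the level filter, at 4.07 ± 0.13 and 4.26 ± 0.02.

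Apolipoproteins L, of which APOL3 damages bacterial membranes after guanylate-binding proteins have opened the outer coat, had 0 of 3 tested genes past the limma threshold and 1 at an unadjusted p under 0.05, a p reached by 16.7% of all tested genes. That was APOL6, with a difference of 0.26 (SE 0.08, adjusted p = 0.117), and APOL3 itself was below the level filter, at 5.32 ± 0.12 and 5.52 ± 0.17 (SD, n = 3). Prenylation enzymes, which attach the lipid anchors of GBP1, GBP2 and GBP5, together with known partners of the family, had 0 of 13 past the limma threshold and 3 at an unadjusted p under 0.05, all 3 higher (FURIN, UBE2L6 and PIM1), where 16.7% of all tested genes had such a p. The smallest p was that of FURIN, the protease that GBP2 and GBP5 restrain, at 7.82 ± 0.09 and 8.06 ± 0.09 (adjusted p = 0.127), and it passed without laminin α1 replicate 3 (adjusted p = 0.0456), with the block (0.0411) and with array weights (0.00023).

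The family lies as an unbroken run of protein-coding genes on chromosome 1, in the RefSeq order GBP3, GBP1, GBP2, GBP7, GBP4, GBP5 and GBP6, so the genes on either side were compared with it. In a list of 11 tested neighbours 0 passed limma's test and 0 had an unadjusted p under 0.05, with differences between -0.25 and 0.15 and a median of -0.13. Among all 17 tested protein-coding genes within 12 genes of the cluster, a window chosen after the data had been examined, 0 passed and 1, TGFBR3, had an unadjusted p under 0.05. The differences of those 17 ran from -0.25 to 0.20, with a median of -0.04. They are not ranked against those of GBP2 and GBP4, by which the family was chosen. Within the cluster, GBP7 lies between GBP2 and GBP4 and was below the level filter. The neighbour with the smallest p in the list was ZNF644, a zinc finger protein, with -0.25 (SE 0.11, adjusted p = 0.315), and it passed without laminin α1 replicate 3 (adjusted p = 0.0276), when 3 of the listed neighbours fell, and also with the block (0.0352) and with array weights (0.0117). Replicate 3 was the highest laminin α1 array for 9 of the 11 listed neighbours, as for GBP3.

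**Figure D5:**
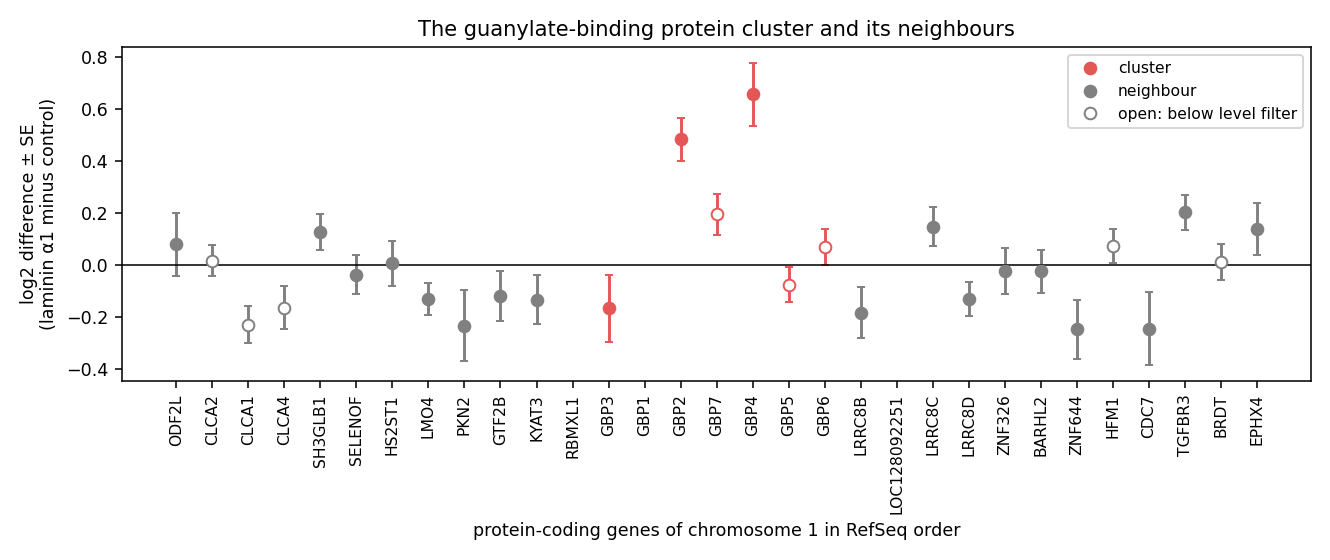
Log2 differences ± SE (laminin α1 minus control, n = 3 per group) of the cluster (red) and its neighbours (grey) in RefSeq gene order, with open symbols below the level filter and no symbol where a gene has no probe set of its own. The tested neighbours lie between -0.25 and 0.20, and the cluster, chosen by these differences, has GBP2 at 0.48 and GBP4 at 0.66.

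The labelled cell type was checked against its markers, since guanylate-binding proteins are also abundant in leukocytes and endothelium. All 12 epithelial markers lay above the level filter by their means over the 6 arrays. The mean over the list was 9.91 to 10.04 on control and 9.71 to 9.75 on laminin α1 arrays, and 3 markers, CDH17, GPA33 and KRT20, fell while 0 rose. CDH17 fell from 6.58 ± 0.05 to 4.93 ± 0.12 (SD, n = 3), a difference of -1.65 (SE 0.08, limma adjusted p = 1.6e-06). Its laminin α1 values of 4.81, 4.95 and 5.04 lay below the filter, so it passed the filter through the control group. The KRT20 call was lost when replicate 2 of either group was left out (adjusted p = 0.0628 for control and 0.0599 for laminin α1). Of 15 immune cell markers on the array 6 lay above the filter and 0 passed limma's test, with 1 at an unadjusted p under 0.05, beside 16.7% of all tested genes. That was CD14, with a difference of 0.20 (SE 0.09, adjusted p = 0.284). The mean over the immune list was 5.55 to 5.58 on control and 5.57 to 5.60 on laminin α1 arrays, and PTPRC, the pan-leukocyte antigen, was below the filter, at 3.65 and 3.55. Of 14 endothelial and fibroblast markers 7 lay above the filter, 0 passed and 0 had an unadjusted p under 0.05, with list means of 5.52 to 5.59 and 5.53 to 5.59. CLDN5 had the smallest p of these, with a difference of -0.08 (SE 0.06, adjusted p = 0.619).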

How the data were processed

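The deposited table holds log2 expression values per probe set for 6 arrays. The submitters' processing notes name RMA and, as software, Affymetrix Expression Console 1.1. RMA gives arrays a common distribution, so a change of all genes together cannot be seen. Values were used as deposited and ranged from 2.40 to 13.9, with array medians of 6.45 to 6.49. Correlations across genes, which are not independent replicates, were 0.991 to 0.998 within and 0.983 to 0.991 between groups. Of 33297 probe sets the annotation names 19460 with 1 symbol and 1754 with several, and it does not list 12083.

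Differences are laminin α1 minus control, from limma 3.58.1 (lmFit, then eBayes, under R 4.3.3), with Benjamini-Hochberg adjustment over all 13812 genes whose mean exceeded log2 5.50, and all adjusted p values are limma's. SE values are from that fit, or for probe sets and genes below the filter from the same fit without it. Tested on simulated data with 13812 genes for this contrast, the fit called 67% of 100 genes given a shift of log2 0.5, 97% of 100 given log2 1, and 7 genes given none. The simulated noise was independent between genes and arrays. It held no deviations that many genes of an array share, which the real arrays have, so these figures do not give the error rate in these data. For arrays, their number limits the precision.

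The members, lists and tests were chosen with earlier results of these data known. Named were the members, LAMA1 and 12 fixed pathway genes, of each list up to 4 genes past the threshold with the smallest p (where none passed, the gene with the smallest p), and the genes nearest in pattern (5 for the mean pattern, 2 per member). IRGQ, PTPRC, IFNL1, IFNL3, UBE2L6, PIM1, TGFBR3, CXCL9, IDO1, CD274 and UBD were named after their values were seen. Alternatives were no filter, a 50th percentile filter, averaging the probe sets of a gene, each guanylate-binding protein probe set separately, repeated quantile normalization, centring on array medians, eBayes with trend and robust settings, the replicate number as a block, array weights, an adjusted p under 0.01, and each array left out in turn. Promoter windows were aligned and searched with Biopython 1.88 and Python 3.11.15.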

Additional observations from a re-analysis of the deposited data

Results flagged for a closer look

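Signal outside the probe sets that the comparison of members used was higher on the arrays labelled laminin α1 than on the control arrays in 2 probe sets of the family. The probe set shared by GBP1, GBP3 and GBP1P1, which the rule leaves out because it carries several symbols, had a log2 difference of 0.22. The second probe set of GBP2, which the rule leaves out as the dimmer one, had a log2 difference of 0.49. Groups of 3 arrays were too small for a check for outlying arrays.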

How the results depend on the processing

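The differences of GBP2 and GBP4 kept their sign under each alternative run, between 0.36 and 0.56 for GBP2 and between 0.49 and 0.75 for GBP4, and those of GBP3 and GBP5 theirs, except that the shared probe set, read in place of GBP3's own, gave 0.22. With array weights, whose estimation stopped before it converged, GBP2 was at 0.36 and 4691 genes passed. An adjusted p under 0.01 left 393 genes. With each array left out in turn between 407 and 1214 passed. The replicate numbers matched the arrays only in part. Deviations of same-numbered arrays from their group means correlated across genes at 0.39 for replicate 1, 0.02 for replicate 2 and 0.53 for replicate 3. In both groups replicates 1 and 3 correlated best with their own number, and replicate 2 did not. Control replicate 1 with laminin α1 replicate 3 gave -0.49, and control replicate 3 with laminin α1 replicate 1 gave -0.44. Whether same-numbered arrays shared a passage was not tested. With the replicate block 1596 genes passed.

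Among receptors, Janus kinases, STATs and IRF factors, with 1 gene higher, array weights gave 5 higher and 4 lower, the replicate block 3 higher, an adjusted p under 0.01 0, and arrays left out 0 to 3. For genes induced by interferon-γ, with 4 higher, array weights gave 10 and the replicate block 8. For inflammasome genes, with 0 higher and 1 lower, array weights gave 3 higher and 3 lower and the replicate block 1 higher, and the 1 lower became 0 with the 50th percentile filter, with centring and at an adjusted p under 0.01, and 0 to 1 with arrays left out. Array weights gave 1 apolipoprotein L higher. For the cluster's neighbours, with none past the threshold, array weights gave 1 higher and 5 lower, the replicate block 2 lower and arrays left out 0 to 3 lower. The difference of IFNGR2 reversed to -0.0037 and that of GSDMD to -0.036 with array weights, and with arrays left out they ranged from -0.033 to 0.072 and from -0.044 to 0.049. The cause was not tested.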

Other observations

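The promoter windows of the pathway lists were searched with the same patterns as those of the family, as a description. An interferon-stimulated response element match lay in the window of 15 of 21 tested genes induced by interferon-α and -β that had a window, and of 9 of 13 induced by interferon-γ, against 3.57% of all windows. Where a gene had several windows, a match in any of them was counted. Among the genes induced by interferon-α and -β, 9 of the 13 that passed the limma threshold and 6 of the 8 that did not held a match. Of the 11 neighbours of the guanylate-binding protein cluster and of the 11 prenylation and partner genes with a window, 0 held one.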
